A study of Homo sapiens with 4 samples.

Results

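Transcript levels of 10 genes that encode fibrillins, latent TGF-β binding proteins (LTBPs) and fibulins were compared between HCT116 cells given 5-aza-2'-deoxycytidine and cells given vehicle. The genes were FBN1 and FBN2, LTBP1, LTBP2, LTBP3 and LTBP4, and FBLN1, EFEMP1, EFEMP2 and FBLN5. They were taken by exact gene symbol from the array's probe annotation, and each of the 10 had 1 probe set naming it alone, among 17958 genes measured. HCT116 is an established human colorectal carcinoma line. 5-aza-2'-deoxycytidine (decitabine) is a cytosine analog that is incorporated into DNA and depletes the cell of DNA methyltransferases. It was present at 1 µM for 72 hours, with a second dose 48 hours after the first, in 2 samples, and 2 further samples received vehicle, whose composition the labels do not name. All 4 samples were of the same line, and RNA of each was hybridized to 1 Affymetrix array. The labels do not say whether samples came from separate cultures, so the p-values speak only of the spread among these 4 samples, part of which may be technical.

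Fibrillins are long, cysteine-rich glycoproteins that assemble into the microfibrils of the extracellular matrix, on which elastic fibres are laid down. LTBPs share the domain plan of fibrillins, and most of them bind the latent form of the growth factor TGF-β and anchor it to microfibrils. Fibulins are smaller matrix glycoproteins that link elastin, microfibrils and basement membranes. In tissue these genes are mainly products of fibroblasts and smooth muscle cells, and epithelial cells contribute a part of them.

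Levels are on the log2 scale of the robust multi-array average (RMA), so a difference of 1 is a 2-fold change. Fold changes and standard errors (SE) come from limma fitted to all 17958 genes, a rise or a fall is a two-sided Benjamini-Hochberg adjusted p under 0.05, and log2 fold changes are decitabine minus vehicle. A level of 1 probe set cannot be set against that of another, because probes differ in affinity. Without detection calls in the table, low levels cannot be sorted into those above background and those within it. Over all genes the median log2 fold change was -0.07 and the median SE 0.13, and pairs of arrays correlated at 0.992 (decitabine) and 0.995 (vehicle) within groups and at 0.966 to 0.971 between them, across probe sets.

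Of the 10 genes, 4 rose (FBN2, EFEMP1, LTBP2 and EFEMP2), 3 fell (FBLN5, LTBP1 and FBLN1) and 3 did not pass the test (FBN1, LTBP3 and LTBP4). Of all genes measured, 12.4% rose and 15.6% fell. A rise of at least 2-fold was called for 4 of the 10 genes, against 5.05% of all genes. For 9 of the 10 genes, all but LTBP3, decitabine and vehicle arrays were fully separate, against 65.8% of all genes. The median log2 fold change of the 10 genes was 0.16. When either vehicle array was left out (replicate 1 or replicate 2), 4 genes still rose and 1, FBLN5, fell. The balance of directions over all genes depended on the scaling: rises made up 44.4% of all calls as deposited and 79.1% after the arrays were centred on the median level of 19 housekeeping genes. This centring also moved the median log2 fold change of those 19 genes themselves, from 0.01 as deposited to 0.28. Centring on the median deviation of the same genes put it at 0.06 and gave 50.7% rises.

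**Figure D1:**
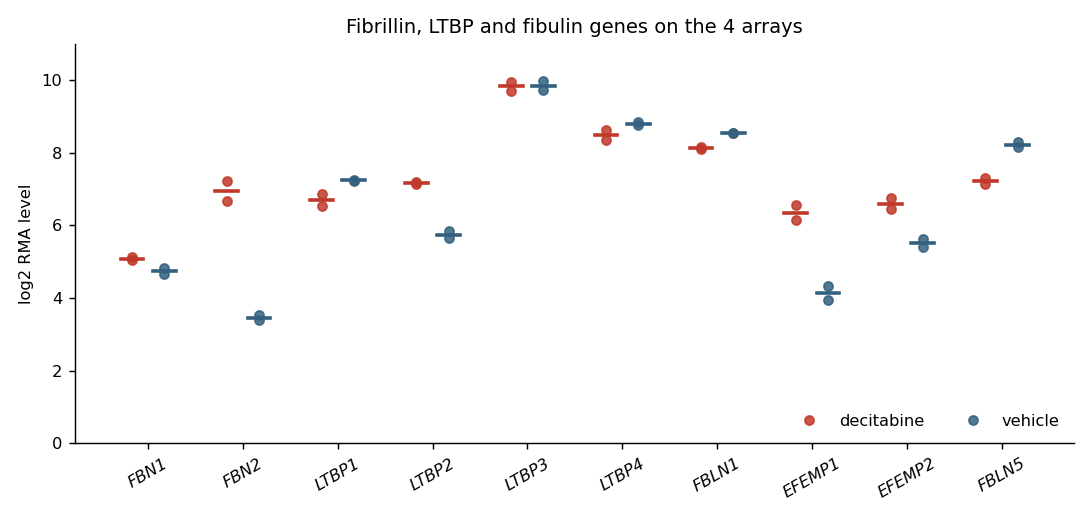
Log2 RMA level of each gene on each array (points), with the mean of each group (bars), for decitabine (red, left) and vehicle (blue, right). The groups stand farthest apart for FBN2, at 6.95 in decitabine and 3.46 in vehicle on average, and they overlap for LTBP3.

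The fibrillin genes differed in size of change. FBN2, the fibrillin used chiefly in fetal microfibrils, had levels of 7.22 and 6.69 on the decitabine arrays, against 3.38 and 3.53 on the vehicle arrays. Both decitabine arrays thus lay more than 3 log2 units above both vehicle arrays. The rise was 11.3-fold (log2 fold change 3.50, SE 0.19, adjusted p = 4.42e-05), and with 1 array left out the log2 fold change ran from 3.23 to 3.77. FBN2 is among the dimmest 33.3% of genes by mean level, as are FBN1 and EFEMP1, and its vehicle level was not shown to lie above background, so this is the fold on the RMA scale only. FBN1, the main fibrillin of adult tissue and the gene mutated in Marfan syndrome, had levels of 5.05 and 5.12 on the decitabine arrays, against 4.82 and 4.65 on the vehicle arrays. Its decitabine arrays were both higher, but by little, and the change did not pass the test (log2 fold change 0.35, SE 0.12, 95% interval 0.06 to 0.64 before adjustment, adjusted p = 0.0754). FBN1 was called higher when the arrays were centred on the median level of housekeeping genes (adjusted p = 0.0141) and with the replicate number in the fit (0.0485). It was not called when they were centred on the median deviation of the same genes (0.0631) or after repeated quantile normalization (0.127). With 1 array left out its log2 fold change ran from 0.27 to 0.43. The difference between the changes of the 2 genes was not tested.

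CpG dinucleotides are the sites at which DNA methyltransferases act, so the reference sequence before each gene's start is shown, here for both fibrillin genes, with CpG in capitals. No methylation was measured here, and these sequences come from RefSeq (GRCh38.p14), 250 bases ending at the base before the annotated start, read 5′ to 3′ on the gene's strand. The FBN2 window is chr5:128538246-128538495, minus strand, and the FBN1 window is chr15:48644971-48645220, minus strand.
FBN2: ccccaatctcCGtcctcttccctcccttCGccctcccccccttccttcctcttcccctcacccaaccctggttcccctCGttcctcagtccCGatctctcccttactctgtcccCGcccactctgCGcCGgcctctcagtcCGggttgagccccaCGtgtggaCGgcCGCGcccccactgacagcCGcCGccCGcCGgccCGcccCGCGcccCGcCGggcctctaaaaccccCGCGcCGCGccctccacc
FBN1: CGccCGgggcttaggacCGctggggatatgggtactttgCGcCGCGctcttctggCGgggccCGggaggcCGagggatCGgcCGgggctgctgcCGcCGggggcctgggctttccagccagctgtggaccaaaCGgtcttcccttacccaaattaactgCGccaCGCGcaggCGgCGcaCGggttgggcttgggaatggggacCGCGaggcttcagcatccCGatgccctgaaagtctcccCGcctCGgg
Both windows held 25 CpG dinucleotides. The ratio of observed to expected CpG, given each window's content of C and G, was 1.01 for FBN2 and 0.830 for FBN1.

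Among the LTBP genes 1 rose, 1 fell and 2 were not called. LTBP2, which unlike the other LTBPs does not bind latent TGF-β, had levels of 7.15 and 7.19 on the decitabine arrays, against 5.65 and 5.85 on the vehicle arrays. The spread within groups was small beside this gap. The rise was 2.68-fold (log2 fold change 1.42, SE 0.12, adjusted p = 0.000368). LTBP1, which attaches latent TGF-β to the matrix, had levels of 6.86 and 6.54 on the decitabine arrays, against 7.25 and 7.24 on the vehicle arrays. Both decitabine arrays were lower, and the decitabine arrays differed from each other more than the vehicle arrays did. The fall was 1.46-fold (log2 fold change -0.54, SE 0.14, adjusted p = 0.0288). It was no longer called without decitabine replicate 2 (adjusted p = 0.0609), without vehicle replicate 1 (0.149) or without vehicle replicate 2 (0.133), nor with centring on the median housekeeping level (0.356); over all alternatives the adjusted p ran from 0.0075 to 0.356.

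LTBP3 and LTBP4 also carry latent TGF-β, and LTBP4 in addition takes part in elastic fibre assembly. LTBP3 had levels of 9.69 and 9.97 on the decitabine arrays, against 9.73 and 9.97 on the vehicle arrays. The groups overlapped almost entirely, with a log2 fold change of -0.02 (SE 0.15, 95% interval -0.38 to 0.33, adjusted p = 0.928). LTBP4 had levels of 8.35 and 8.63 on the decitabine arrays, against 8.77 and 8.85 on the vehicle arrays. Its decitabine arrays were both lower, without passing the test (log2 fold change -0.32, SE 0.14, 95% interval -0.65 to 0.01, adjusted p = 0.134). It was called lower without decitabine replicate 2 (log2 fold change -0.46, adjusted p = 0.0399; 0.0399 to 0.886 across the alternatives).

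The fibulin genes split evenly, 2 rising and 2 falling. EFEMP1, which encodes fibulin-3, a short fibulin, had levels of 6.57 and 6.14 on the decitabine arrays, against 4.32 and 3.95 on the vehicle arrays. The replicates of each group lay far closer to each other than to the other group. The rise was 4.66-fold (log2 fold change 2.22, SE 0.19, adjusted p = 0.000328). As for FBN2, the vehicle level of EFEMP1 was not shown to lie above background, so this is the fold on the RMA scale only. EFEMP2, which encodes fibulin-4, a protein needed to bring lysyl oxidase to elastin, had levels of 6.74 and 6.44 on the decitabine arrays, against 5.61 and 5.41 on the vehicle arrays. It rose 2.12-fold (log2 fold change 1.08, SE 0.15, adjusted p = 0.0027).

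FBLN5, the fibulin that tethers elastin to cell surface integrins, had levels of 7.14 and 7.31 on the decitabine arrays, against 8.29 and 8.15 on the vehicle arrays. Both decitabine arrays were lower by a clear margin, and the fall was 1.99-fold (log2 fold change -0.99, SE 0.13, adjusted p = 0.00193). With 1 array left out its log2 fold change ran from -1.08 to -0.91, and it was called in each case. FBLN1, a fibulin of basement membranes and elastic fibres, had levels of 8.11 and 8.17 on the decitabine arrays, against 8.54 and 8.54 on the vehicle arrays. The groups did not overlap and each was tight, but the change was small, a 1.32-fold fall (log2 fold change -0.40, SE 0.11, adjusted p = 0.0383). That call was lost without decitabine replicate 1 (adjusted p = 0.0587), without vehicle replicate 1 (0.245) and without vehicle replicate 2 (0.230). It was also lost under all 3 other scalings of the arrays, among them repeated quantile normalization (log2 fold change -0.32, adjusted p = 0.0785), and its adjusted p ran from 0.0231 to 0.682 over all alternatives.

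**Figure D2:**
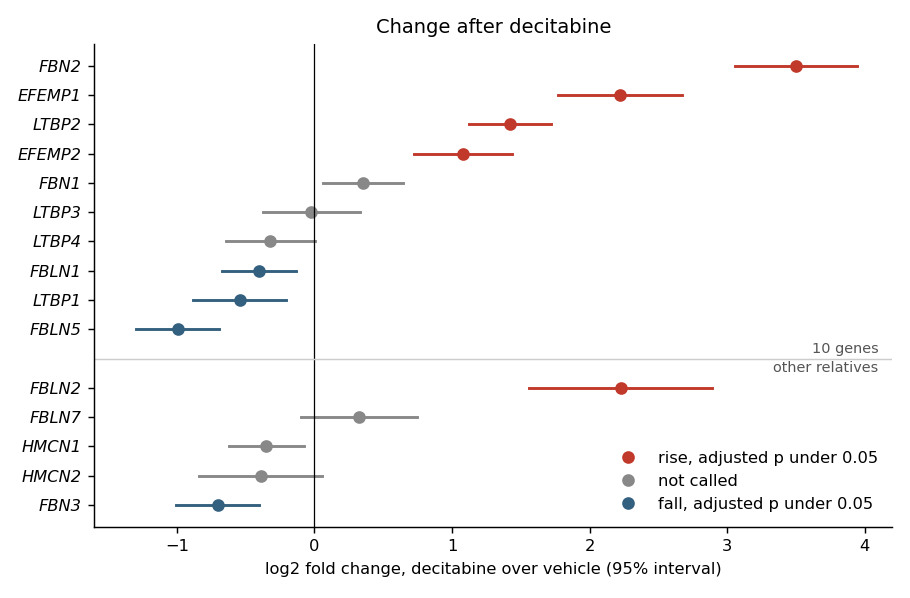
Log2 fold change, decitabine over vehicle, of the 10 genes (top) and of 5 relatives that were not among them (bottom). Points are limma estimates and lines 95% intervals before adjustment; red marks a rise, blue a fall and grey no call. FBN2 stands at 3.50 and FBLN5 at -0.99, the ends of the range of the 10 genes.

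Sequences before the starts of 2 further genes that rose and of the 3 genes that fell are given for comparison, with CpG again in capitals. The windows are chr14:74612238-74612487, minus strand (LTBP2), chr11:65872801-65873050, minus strand (EFEMP2), chr14:91947695-91947944, minus strand (the more upstream of the FBLN5 starts), chr2:32946703-32946952, plus strand (the most upstream of the LTBP1 starts) and chr22:45502633-45502882, plus strand (FBLN1).
LTBP2: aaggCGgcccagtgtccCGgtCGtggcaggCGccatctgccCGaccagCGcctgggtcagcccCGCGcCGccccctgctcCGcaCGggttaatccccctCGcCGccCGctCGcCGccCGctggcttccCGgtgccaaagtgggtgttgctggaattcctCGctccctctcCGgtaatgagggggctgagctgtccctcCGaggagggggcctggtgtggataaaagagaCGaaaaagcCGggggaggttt
EFEMP2: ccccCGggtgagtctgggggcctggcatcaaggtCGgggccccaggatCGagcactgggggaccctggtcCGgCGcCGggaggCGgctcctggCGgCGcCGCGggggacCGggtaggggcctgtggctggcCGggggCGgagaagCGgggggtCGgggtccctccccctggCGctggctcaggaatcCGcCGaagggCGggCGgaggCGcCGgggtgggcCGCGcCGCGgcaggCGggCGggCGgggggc
FBLN5: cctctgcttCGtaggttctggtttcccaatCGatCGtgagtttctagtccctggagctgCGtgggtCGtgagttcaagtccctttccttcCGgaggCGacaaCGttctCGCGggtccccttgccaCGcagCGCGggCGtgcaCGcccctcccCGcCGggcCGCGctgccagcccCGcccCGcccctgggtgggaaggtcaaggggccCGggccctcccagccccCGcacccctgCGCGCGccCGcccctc
LTBP1: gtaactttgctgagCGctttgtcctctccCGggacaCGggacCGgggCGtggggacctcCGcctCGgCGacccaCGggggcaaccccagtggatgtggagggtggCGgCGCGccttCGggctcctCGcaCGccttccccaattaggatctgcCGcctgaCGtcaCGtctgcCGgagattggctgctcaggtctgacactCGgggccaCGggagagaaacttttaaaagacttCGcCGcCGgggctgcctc
FBLN1: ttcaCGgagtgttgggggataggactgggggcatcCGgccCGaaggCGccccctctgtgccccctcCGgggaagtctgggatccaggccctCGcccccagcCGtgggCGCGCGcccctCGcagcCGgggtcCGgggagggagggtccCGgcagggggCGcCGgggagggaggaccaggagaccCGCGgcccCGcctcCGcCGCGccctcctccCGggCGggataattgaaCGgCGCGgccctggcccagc
The 2 rising genes had 23 CpG (LTBP2) and 30 CpG (EFEMP2), and the falling genes 27 CpG (FBLN5), 24 CpG (LTBP1) and 27 CpG (FBLN1). CpG number thus did not separate genes that rose from genes that fell in these windows. RefSeq starts were matched for 9 of the 10 genes, EFEMP1 being named only, with 14 windows in all.

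At least 1 CpG-rich window, defined as a G and C content of at least 50% and an observed to expected CpG ratio of at least 0.6, was found for 9 of these 9 genes, against 68.0% of the 13864 measured genes with a window. Of the 14 windows, 10 were CpG-rich, 71.4%, against 58.8% of the 19637 windows of measured genes and 45.0% of all 35116 RefSeq windows. The 10 included both LTBP3 windows, which overlap each other. The remaining 4 lay before downstream starts of LTBP1 (6 CpG in each of 2 overlapping windows) and FBLN5 (14 CpG), and before the more upstream LTBP4 start (4 CpG). LTBP4, which was not called, also had the window richest in CpG, with 33. Among measured genes the share of CpG-rich windows was 57.2% for genes that rose and 66.1% for genes that fell. The letters GGGCGG, the core of the GC box bound by SP and KLF family factors, were searched on both strands. They occurred in 10 of the 14 windows, against 54.8% of the windows of measured genes (58.1% both for genes that rose and for genes that fell) and 42.6% of all windows, and they overlap CpG by their own sequence. The most copies, 5, were before EFEMP2, which rose, and before a start of LTBP4, which was not called. FBN2 and LTBP2, which rose, and the upstream start of FBLN5, which fell, held 3 copies each. Which start is used in HCT116 cells was not determined, and a match is a description of the letters only.

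**Figure D3:**
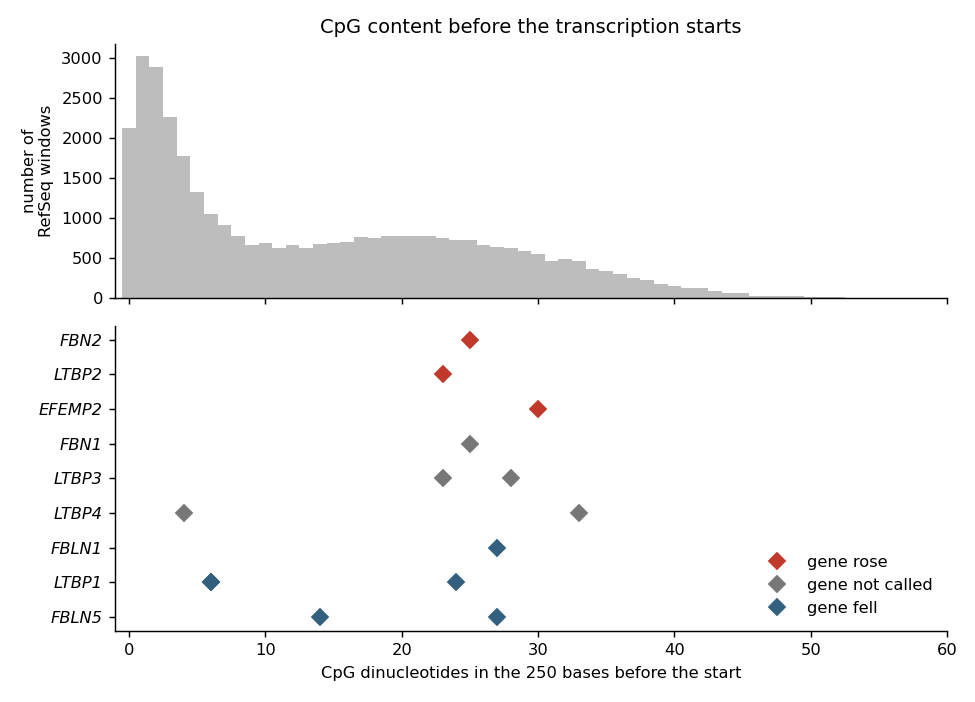
Top, number of RefSeq windows of 250 bases by their count of CpG dinucleotides. Bottom, the windows of the 9 genes with a RefSeq start (diamonds, several where a gene has several starts), red where the gene rose, blue where it fell and grey where it was not called; genes that rose and fell lie in the same range of 23 to 30 CpG, apart from the alternative starts of LTBP1 and FBLN5.

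The genes lie on 7 autosomes, and LTBP1 and EFEMP1 share chromosome 2, LTBP3 and EFEMP2 chromosome 11, and LTBP2 and FBLN5 chromosome 14. Each of these chromosomes thus carried 1 rising gene together with 1 that fell or was not called. For each of the 10 genes the nearest measured gene on either side was read. Of these 20 neighbours 4 rose, 3 fell and 13 were not called, and the shares over all genes were 12.4% and 15.6%. FBN2 was flanked by SLC12A2, a chloride cotransporter gene, which rose by less (log2 fold change 0.62, SE 0.12, adjusted p = 0.0102), and by SLC27A6, a fatty acid transporter gene, which was not called (-0.32, SE 0.15, adjusted p = 0.166). Both neighbours of EFEMP2 rose, MUS81, a DNA repair nuclease gene, by 0.61 and CTSW, a cathepsin gene, by 0.78 on the log2 scale (adjusted p = 0.00941 and 0.0043). Both neighbours of FBN1 fell, DUT, which encodes dUTPase, with a log2 fold change of -0.84 and CEP152, a centrosomal gene, with -1.07 (adjusted p = 0.00371 and 0.000905). Beside FBLN1, RIBC2 fell (log2 fold change -1.52, adjusted p = 0.000365), while RASGRP3 rose beside LTBP1 (1.13, adjusted p = 0.00997).

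Relatives of these families that were not among the 10 genes also went both ways, with 1 rise, 1 fall and 3 uncalled of 5. Rises made up 12.4% and falls 15.6% of all genes. FBLN2, a large fibulin, had levels of 7.36 and 7.98 on the decitabine arrays, against 5.08 and 5.81 on the vehicle arrays. It rose 4.68-fold (log2 fold change 2.23, SE 0.28, adjusted p = 0.00183), with a wider spread within groups than any of the 10 genes showed. FBN3, the remaining fibrillin gene, had levels of 5.22 and 5.39 on the decitabine arrays, against 5.93 and 6.09 on the vehicle arrays. It fell 1.63-fold (adjusted p = 0.00765), and the fall was not called without vehicle replicate 2 or with centring on the median housekeeping level. FBLN7 and the hemicentin genes HMCN1 and HMCN2, which carry fibulin-type ends, were not called (log2 fold changes 0.32, -0.35 and -0.39).

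The genes whose 4 array values lay closest to those of FBN2, by Euclidean distance over the 4 arrays, were C2orf74-DT (distance 0.35), ZNF528 (0.37) and LUZP4 (0.38). Their log2 fold changes were 3.50, 3.33 and 3.77. With 4 arrays in 2 groups, this likeness reflects little more than a similar level and change.

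Of 27 genes for elastic fibre and microfibril partners, 5 rose and 2 fell, with a median log2 fold change of 0.08. Over all genes, 12.4% rose and 15.6% fell. BGN, the small proteoglycan biglycan, had levels of 7.29 and 7.72 on the decitabine arrays, against 5.42 and 4.81 on the vehicle arrays, and rose 5.24-fold (adjusted p = 0.000545). LOX, the lysyl oxidase that crosslinks elastin and collagen, rose 2.16-fold (adjusted p = 0.00309), and VCAN, the fibrillin-binding proteoglycan versican, 1.55-fold (adjusted p = 0.0121). ADAMTSL3 and ADAMTSL5, secreted ADAMTS-like proteins, also rose (log2 fold changes 0.60 and 0.57). LOXL1, a lysyl oxidase relative that acts on elastin, and ADAMTS10, a fibrillin-binding protease, fell (log2 fold changes -0.51 and -0.43). ELN, the elastin gene itself, was not called, with levels of 5.23 and 5.15 on the decitabine arrays, against 5.19 and 5.55 on the vehicle arrays (adjusted p = 0.428). Leaving out vehicle replicate 1 or vehicle replicate 2 gave 2 rises and 0 falls in this list, and leaving out decitabine replicate 1 or replicate 2 gave 1 fall.

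Genes that make, hold or release TGF-β rose in 6 cases of 16 and fell in 1, against 12.4% and 15.6% of all genes. The median log2 fold change of the 16 was 0.29. TGFB1, the ligand that LTBPs chiefly carry, had levels of 9.68 and 10.15 on the decitabine arrays, against 9.20 and 9.43 on the vehicle arrays. Its rise was 1.52-fold and close to the threshold (log2 fold change 0.60, SE 0.18, adjusted p = 0.0474). TGFB2 (log2 fold change 0.60, adjusted p = 0.0803) and TGFB3 (0.31, adjusted p = 0.141) were not called. THBS1, the thrombospondin that can activate latent TGF-β, rose 3.41-fold (adjusted p = 9.72e-05). FURIN, the protease that cleaves the TGF-β precursor, rose 1.78-fold (adjusted p = 0.00717). LRRC32 and NRROS, membrane proteins that hold latent TGF-β on the cell surface in place of LTBPs, rose 1.80-fold and 1.59-fold. Of the integrin genes, ITGB5 was higher (log2 fold change 0.52) and ITGB8 lower (-0.51). ITGAV, ITGB1, ITGB3 and ITGB6 were not called (log2 fold changes between -0.15 and 0.17). Leaving out vehicle replicate 1 or vehicle replicate 2 gave 2 rises and 0 falls, and leaving out decitabine replicate 2 gave 0 falls.

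Of 11 TGF-β receptor and SMAD genes, 4 rose and 0 fell in limma's test, against 12.4% and 15.6% of all genes. The median log2 fold change of the 11 was 0.20. Among those with a negative change SMAD6 had the lowest unadjusted limma p (0.0731), and a plain test without pooled variance called none of the 11. ENG, the co-receptor endoglin, rose 5.76-fold, BAMBI, a decoy receptor, 2.59-fold, and SMAD7, an inhibitory SMAD, 1.88-fold. TGFBR3, the co-receptor betaglycan, rose 1.36-fold. TGFBR1 and TGFBR2, the signalling receptors, were not called (log2 fold changes 0.11 and 0.13). Whether these receptors function in HCT116 cells was not measured. SMAD6 was called lower without decitabine replicate 2, a fit with 3 rises in the list.

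Of 19 TGF-β target genes 12 rose and 1 fell, against 12.4% and 15.6% of all genes, with a median log2 fold change of 0.63 in the list. LTBP2 is 1 of the 12, and SMAD7 and THBS1 are counted in lists above as well. CCN2, connective tissue growth factor, had levels of 10.56 and 10.57 on the decitabine arrays, against 6.50 and 6.36 on the vehicle arrays, and rose 17.5-fold (adjusted p = 3.98e-06). TGFBI rose 2.85-fold, the SMAD regulators SKIL and PMEPA1 2.02-fold and 2.23-fold, BHLHE40 1.81-fold and the cell cycle inhibitor gene CDKN2B 1.71-fold (highest adjusted p of these 5, 0.00667). ID1, an inhibitor of differentiation, fell (log2 fold change -0.41, adjusted p = 0.0361). Leaving out vehicle replicate 1 or vehicle replicate 2 gave 9 rises and no call for ID1, which was not called without decitabine replicate 2 either. With centring on the median housekeeping level there were 14 rises in this list and 9 each among the elastic fibre partners and the TGF-β ligands and activators, and 0 falls in all 3 lists. That setting put the median log2 fold change of the housekeeping genes themselves at 0.28. Centring on their median deviation gave 12, 5 and 6 rises in these lists, and 1 fall, in the last of them. These are transcript levels, TGF-β protein and signalling were not measured, and many of these genes also answer to other pathways.

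**Figure D4:**
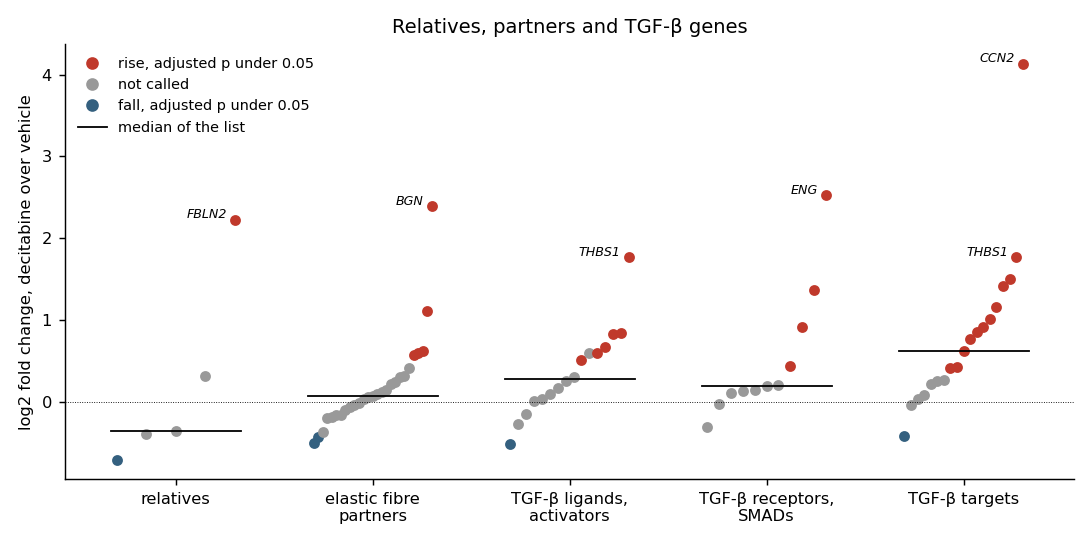
Log2 fold change, decitabine over vehicle, of each measured gene in 5 lists, ordered within each list, with the list's median (black line); red marks a rise, blue a fall, grey no call. Medians run from -0.35 (relatives) to 0.63 (TGF-β targets), against -0.07 for all genes, and SMAD7, THBS1 and FN1 appear in more than 1 list.

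Markers of other cell types were read beside these genes, since fibrillins and fibulins are abundant in fibroblasts. The counts below stand beside shares of 12.4% rises and 15.6% falls over all genes. ENG, COL1A1 and DCN are counted in lists above as well. Of 11 fibroblast and mural markers 4 rose (THY1, ACTA2, COL1A1 and PDGFRA) and 1, DPT, fell. Their mean level was 5.13 and 5.19 on the decitabine arrays, against 4.73 and 4.76 on the vehicle arrays. The fall of DPT was not called with either centring on housekeeping genes or with a trend in the prior variance. Without vehicle replicate 1 there was 1 rise, and without vehicle replicate 2 there were 2. The fibroblast collagen genes COL1A2 and COL3A1, the receptor PDGFRB, the proteoglycans DCN and LUM, and FAP were not called. Their log2 fold changes lay between -0.24 (FAP) and 0.25 (DCN). Of 7 endothelial markers 2 rose (ENG 5.76-fold and PECAM1 3.46-fold) and 1 fell. The mean level of the 7 was 5.42 and 5.33 on the decitabine arrays, against 4.67 and 4.80 on the vehicle arrays. The endothelial fall, of KDR, was not called without decitabine replicate 2, vehicle replicate 1 or vehicle replicate 2, and there were 3 rises without decitabine replicate 2. Of 7 leukocyte markers 4 rose (CD3D 3.47-fold, CD68 2.88-fold, CD14 2.27-fold and CD3E 1.89-fold), and all 7 log2 fold changes were above 0. Their mean level was 5.54 and 5.58 on the decitabine arrays, against 4.65 and 4.84 on the vehicle arrays. PTPRC, which defines leukocytes, was not called (log2 fold change 0.10), nor were ITGAM (0.11) and MS4A1 (0.08). Of 10 colorectal epithelial markers 2 rose (KRT18 and CDX2) and 1, EPCAM, fell. The rises numbered 0 without vehicle replicate 1, 1 without vehicle replicate 2, 1 without decitabine replicate 2 and 4 without decitabine replicate 1, and EPCAM remained the 1 fall in each of these fits. EPCAM had levels of 11.14 and 11.04 on the decitabine arrays, against 11.79 and 11.82 on the vehicle arrays. The part of any other cell type in the changes of the 10 genes was not tested, and in bulk RNA more cells that express a gene and more RNA per cell cannot be told apart.

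**Figure D5:**
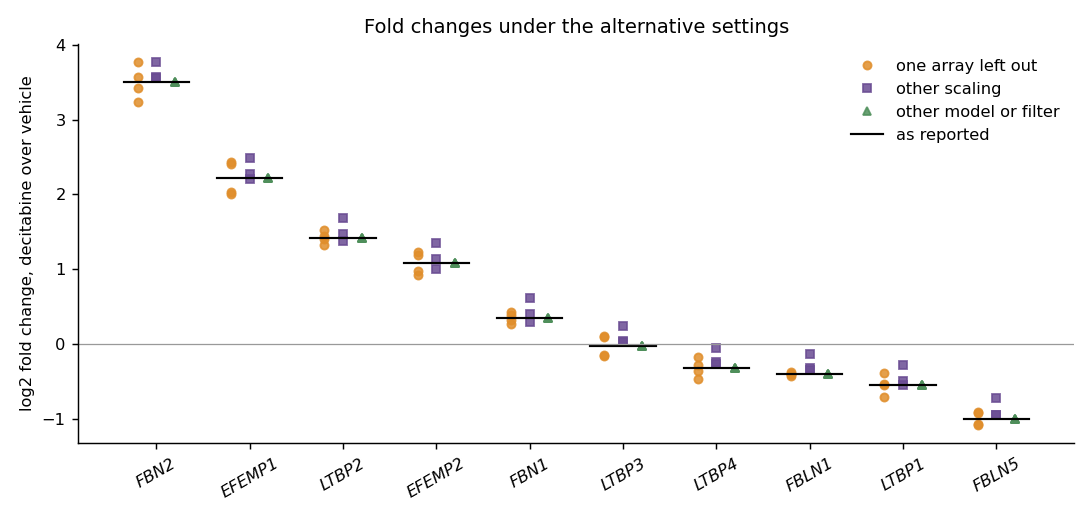
Log2 fold change of each of the 10 genes as reported (black line) and under the alternatives: 1 array left out (circles), other scaling (squares), and other models or filters (triangles). FBN2 stays between 3.23 and 3.77, and only LTBP3 has values on both sides of 0.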

How the data were processed

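RNA from 2 decitabine and 2 vehicle samples of HCT116 cells was measured on 1 array each. The deposited log2 values, 1 for each of 33297 probe sets and each array, are the authors' RMA output (background correction, quantile normalization, summary by probe set) from Affymetrix Expression Console, per the submitters' processing notes. Versions and genome build: not given in the sources used here. Quantile normalization hides a change in total RNA, and folds of dim genes are usually compressed.

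A platform annotation gave 1 gene symbol for 19181 probe sets, several for 2055 and none for 12061. For each of 17958 genes the probe set with the highest mean over the arrays was kept. limma 3.58.1 in R 4.3.3 (lmFit, eBayes, no covariate) compared the groups, with p-values adjusted over all genes at 0.05. On simulated arrays of these 17958 genes, with 200 genes changed in each of 5 runs, a log2 change of 0.5 was called in 2.4% of cases, a change of 1 in 67.2% and a change of 2 in 99.6%. The measured arrays gave 2229 rises and 2794 falls. The adjustment was therefore stricter in the simulation, and these shares do not carry over to the measured arrays. An exact permutation test of 1 gene cannot go below 0.333 here.

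The 10 genes and the lists were chosen with earlier results of these data known. Named were all 10 genes, called genes of each list (up to 8 by smallest p), TGFB1, TGFB2, TGFB3, ELN, FBN3 and FBLN2, and 3 nearest genes to FBN2; other genes, neighbours included, were named after their values were seen. The alternatives tried are given below. The number of arrays limits the precision.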

Additional observations from a re-analysis of the deposited data

How the results depend on the processing

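The rises of FBN2, EFEMP1, LTBP2 and EFEMP2 and the fall of FBLN5 kept their direction and their call with each array left out, under each scaling, with a trend in the prior variance, with every probe set of 1 symbol tested and with the replicate block; FBN2 and EFEMP1 were not tested without the dimmest 33.3% of genes, which left 2 rises. A plain test without pooled variance called 0 of the 10 genes (8 had an unadjusted p under 0.05 in limma), and 1 gene higher (INA, a neuronal filament gene named after its value was seen) and 0 lower in all. An adjusted p of 0.01 left 4 rises and 1 fall of the 10, and 1298 rises and 1255 falls of all genes. With 1 array left out, the falls among the 10 genes ran from 1 to 3, and over all genes the rises ran from 1267 to 2530 and the falls from 1196 to 3401. Centring on the median housekeeping level moved the median of all genes to 0.20 and that of the 19 housekeeping genes from 0.01 to 0.28. It gave 1 fall (FBLN5) among the 10, with 3677 rises and 971 falls in all, 79.1% rises against 44.4% as deposited. Centring on the median deviation of the same 19 genes, chosen after seeing the data, put the median of all genes at -0.02. It gave 2 falls (FBLN5 and LTBP1) among the 10, with 2394 rises and 2327 falls in all. LTBP3 changed sign, uncalled, with the first centring (0.24), the second (0.027), repeated quantile normalization (0.034), and with 1 array left out (-0.16 to 0.11). The replicate block gave 5 rises, FBN1 added (adjusted p = 0.0485), and 3 falls; deviations of same-numbered arrays correlated at 0.266, and nothing in the labels pairs them. The causes of these shifts were not tested. No gene had a second probe set to try.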
